A study of Mus musculus with 8 samples.

Results

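The 9 megakaryocyte and platelet genes Pf4, Ppbp, Itga2b, Gp1bb, Gp9, Gp5, Vwf, F2r and Slc14a1 were read on expression arrays of mouse multipotent progenitors, and none of them passed the test between FLT3-ITD and wild type. A gene belonged to the set by its name, and every probe set that the platform annotation gives to exactly 1 of these genes was used. That gave 12 probe sets for 9 of the 18193 genes on the arrays, with 1 probe set for 6 genes and 2 each for Gp1bb, F2r and Slc14a1. The widest spread among them was that of Pf4, which read 8.09 in wild type replicate 2 and 4.70 to 5.30 on the other 7 arrays.

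Marrow cells were taken from C57BL6 mice, all female and 8 to 10 weeks old, of wild type or FLT3-ITD genotype. FLT3-ITD is a leukaemia-associated form of the cytokine receptor FLT3 in which a stretch of the protein is duplicated in tandem. Zygosity and the way the allele was introduced are not given in the sources used here. Both genotypes were sorted by the same gate, which kept lineage negative cells with Sca-1, cKit and CD48 on their surface and without CD150, called lympho-myeloid multipotent progenitors in the labels. Each genotype had 4 arrays, labelled 1, 2, 3 and a further 1 that bears the tag 037 and is called replicate 037 here. Whether the replicates came from separate mice is not stated, so p-values measure the spread between these arrays, which may be technical.

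Megakaryocytes are the large marrow cells that shed platelets, and they arise from progenitors that switch on adhesion receptors and granule proteins long before platelets form. The glycoprotein Ib-IX-V complex, which catches von Willebrand factor at a wound, and the fibrinogen receptor formed by integrin alpha IIb with integrin beta 3 are the best known of the receptors. In mouse marrow, megakaryocyte progenitors are usually sought among cells that carry CD150 and integrin alpha IIb (CD41). The gate used here removes CD150 positive cells. In a bulk sample, fewer cells of a type and less RNA per cell cannot be told apart.

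Transcription of many platelet genes is driven by GATA factors and ETS factors acting near the start site. Promoter windows were read for 7 of the 9 genes. Vwf had no usable entry, and Slc14a1 lies on a chromosome that was left out. Of the promoters, 5 are shown, picked after the readings of these genes were seen. Pf4 and Ppbp are neighbours on the chromosome with no annotated gene between them and starts 3917 bases apart. Pf4 and Gp5 were highest in wild type replicate 2, as described below. Ppbp did not stand out there, but its probe set lay below the median on every array, which limits what it can show. Itga2b and Gp9 read above the array median on all 8 arrays. Any link between these windows and the readings was not tested. Each line is the 250 bases before the start site in build GRCm38.p6, written 5′ to 3′ along the gene. Capitals mark GATA with A or T before it and A or G after it, and GGAAG, the core of an ETS site, each on either strand. The windows are chr5:90772185-90772434 (plus strand) for Pf4, chr5:90768268-90768517 (plus) for Ppbp, chr16:30310782-30311031 (minus) for Gp5, chr11:102469884-102470133 (minus) for Itga2b and chr6:87777820-87778069 (plus) for Gp9.
Pf4: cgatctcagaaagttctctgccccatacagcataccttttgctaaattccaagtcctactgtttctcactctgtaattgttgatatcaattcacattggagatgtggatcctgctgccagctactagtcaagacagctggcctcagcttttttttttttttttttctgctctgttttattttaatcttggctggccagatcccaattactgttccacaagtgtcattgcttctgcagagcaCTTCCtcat
Ppbp: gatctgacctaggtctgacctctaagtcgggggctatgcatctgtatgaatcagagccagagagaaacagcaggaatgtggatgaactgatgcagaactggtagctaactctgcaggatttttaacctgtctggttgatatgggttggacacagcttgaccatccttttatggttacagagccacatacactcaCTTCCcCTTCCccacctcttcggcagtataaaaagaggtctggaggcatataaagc
Gp5: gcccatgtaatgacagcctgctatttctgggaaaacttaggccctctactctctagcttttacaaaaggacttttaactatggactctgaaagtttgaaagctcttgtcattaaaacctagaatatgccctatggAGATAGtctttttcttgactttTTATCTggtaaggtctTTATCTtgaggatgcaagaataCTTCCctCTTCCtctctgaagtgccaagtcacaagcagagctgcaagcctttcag
Itga2b: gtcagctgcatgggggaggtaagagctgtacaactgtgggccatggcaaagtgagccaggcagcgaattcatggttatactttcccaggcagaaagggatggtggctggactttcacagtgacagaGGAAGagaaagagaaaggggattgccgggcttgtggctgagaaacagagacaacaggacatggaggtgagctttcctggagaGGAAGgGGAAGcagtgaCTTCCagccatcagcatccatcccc
Gp9: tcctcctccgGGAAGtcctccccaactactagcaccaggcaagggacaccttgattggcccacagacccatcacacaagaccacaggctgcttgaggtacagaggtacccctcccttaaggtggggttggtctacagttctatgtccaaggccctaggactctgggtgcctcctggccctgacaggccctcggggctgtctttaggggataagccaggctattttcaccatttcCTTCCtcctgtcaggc

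In these windows the script found 1 GGAAG match for Pf4, 2 for Ppbp, 2 for Gp9, 4 for Itga2b and 2 for Gp5. Among the 5 printed windows, GATA matches were found in that of Gp5, which held 3, and none overlapped a GGAAG match. Of the 7 member windows, 6 held GGAAG and 2, those of Gp5 and Gp1bb, held the GATA motif. Over all 32851 promoter windows of the same length the shares were 64.1% for GGAAG and 26.5% for the GATA motif, so the letters are common. A match describes these letters only.

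The deposited values are log2 expression values made by RMA, a method that corrects background, scales arrays to one distribution and summarises the probes of each set. Array medians lay between 5.98 and 6.05, and correlations between arrays over all probe sets ran from 0.948 to 0.981. FLT3-ITD replicate 1 stood apart, at 0.948 to 0.960 with the other 7 arrays. The gap between 3′ and 5′ control probe sets of Gapdh, a sign of RNA quality, was 2.99 in FLT3-ITD replicate 037 against 1.82 to 2.29 elsewhere, and the genotype means of 1.94 and 2.29 gave an exact two-sided permutation p of 0.2. Cd48, a marker of the gate, read 9.76 to 10.11 in wild type and 10.82 to 11.08 in FLT3-ITD, and Kit read 8.77 to 9.80 over all arrays. Slamf1, which encodes CD150, read 4.24 to 5.75, below every array median. Markers of lymphocytes were mixed by the same measure. Cd79a at 4.95 to 5.69, Ms4a1 at 3.45 to 3.99, Cd3e at 4.64 to 5.29 and Cd3g at 4.46 to 5.0 lay below every array median, whereas Cd79b at 6.60 to 7.16, Cd4 at 6.27 to 6.79 and Cd8a at 6.07 to 7.38 lay above it on all 8 arrays.

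Each of the 12 probe sets was tested with limma among all 34945 probe sets with 1 gene, with no filter on low values. None of the 12 passed a Benjamini-Hochberg adjusted p of 0.05. Over all probe sets 0.157% passed, 48 higher and 7 lower in FLT3-ITD. The members' limma adjusted p ran from 0.553 to 0.985, with 6 differences above 0 and 6 below. At an unadjusted p under 0.05 there were 2 members, 1 probe set each of Gp1bb and Slc14a1, against 8.03% of all probe sets. The genotypes were without overlap in 1 member, Gp1bb by 1456427_at, and that held for 5.24% of all probe sets. In 10 of the 12 the difference was under 0.3 in size on the log2 scale, and the median of the members was 0.01 beside 0.02 for all probe sets. The smallest difference that passed the test anywhere in the table was 0.83.

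**Figure D1:**
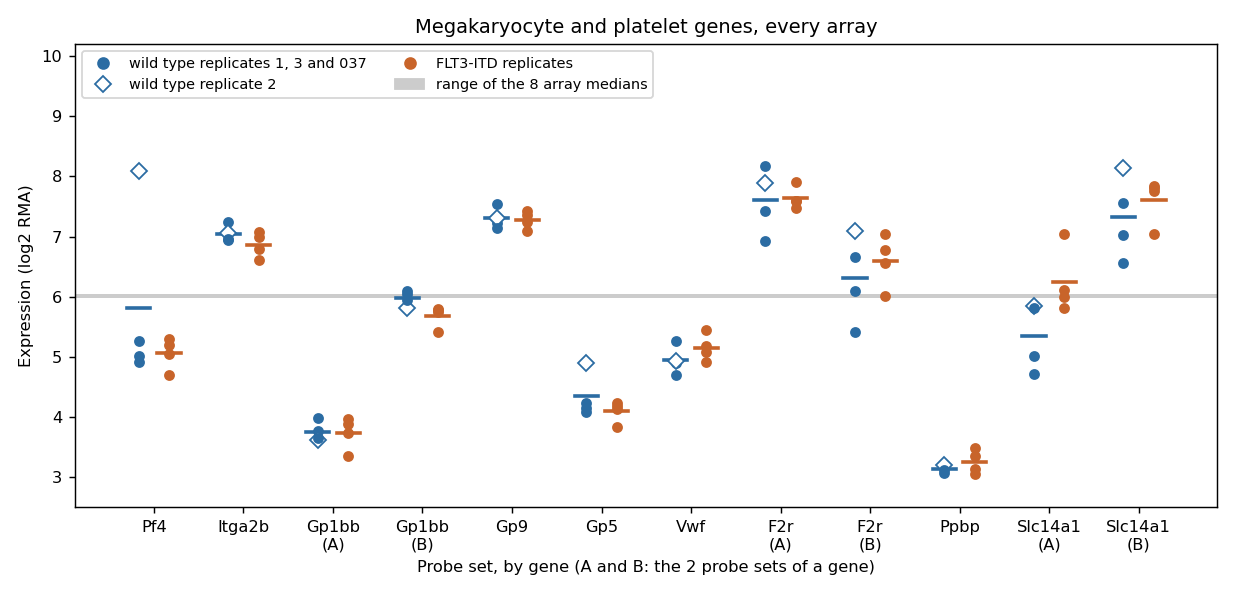
Log2 RMA expression of the 12 probe sets of the 9 genes on every array, wild type in blue and FLT3-ITD in orange, with short bars at the genotype means (n = 4 each) and a grey band at the range of the 8 array medians. Gp1bb, F2r and Slc14a1 have 2 probe sets, marked A and B, in the order in which the text gives them. The open diamond is wild type replicate 2, which reads 8.09 for Pf4, where the other 7 arrays lie between 4.70 and 5.30.

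Itga2b encodes integrin alpha IIb, the CD41 antigen that marks megakaryocyte progenitors and platelets. Its probe set read 7.24, 7.06, 6.94 and 6.97 in wild type replicates 1, 2, 3 and 037 and 6.99, 7.07, 6.79 and 6.61 in the FLT3-ITD replicates in the same order. The genotypes overlapped, all 8 values lay above the array medians, and the whole span was 0.63. The means were 7.05 ± 0.14 and 6.87 ± 0.21 (log2, SD, n = 4 each), a difference of -0.18 ± 0.14 (SE; 95% interval -0.49 to 0.12; limma adjusted p = 0.786). The lowest array was FLT3-ITD replicate 037, the one with the highest Gapdh gap, and without it the difference was -0.10; the part of RNA quality in it was not tested.

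Itgb3 encodes integrin beta 3, the partner of integrin alpha IIb, and was the more variable of the pair. Its brighter probe set read 5.43, 6.99, 5.80 and 7.86 in wild type and 7.76, 7.82, 7.04 and 8.74 in FLT3-ITD, in the order 1, 2, 3 and 037. Replicate 037 was the highest in each genotype, and the ranges overlapped. The difference was 1.32 ± 0.55 (SE; limma adjusted p = 0.50 among tested genes). Its other probe set exceeded the array median on 1 array and differed by 0.37 ± 0.17.

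Gp9, Gp1bb and Gp5 encode subunits of the glycoprotein Ib-IX-V complex, in which glycoprotein Ib alpha carries the site for von Willebrand factor. Gp9 read 7.22, 7.31, 7.15 and 7.54 in wild type and 7.43, 7.24, 7.09 and 7.36 in FLT3-ITD. Those values are interleaved, with a span of 0.45, all above the array medians. The difference of -0.03 ± 0.13 has a 95% interval from -0.32 to 0.27 (limma adjusted p = 0.977), the narrowest among the 4 genes above the filter on dim probe sets described below.

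Gp1bb was read by a dim probe set, 1422977_at, and by 1456427_at, whose values lay close to the array medians. The first read 3.77, 3.62, 3.65 and 3.98 in wild type and 3.97, 3.35, 3.88 and 3.73 in FLT3-ITD, a difference of -0.02 ± 0.16 (limma adjusted p = 0.985). The second read 6.09, 5.82, 5.94 and 6.04 in wild type and 5.79, 5.41, 5.74 and 5.79 in FLT3-ITD. It was the single member whose genotypes did not overlap, by a gap between 5.82 and 5.79, and its difference was -0.29 ± 0.13 (95% interval -0.58 to -0.0038; limma adjusted p = 0.616). Over the 8 arrays these probe sets had a Pearson r of 0.62 and a Spearman rho of 0.29 (exact permutation p = 0.105 and 0.501). Without the 2 arrays farthest from the median of 1422977_at, r was -0.33. With 8 arrays and a dim probe set, these values do not settle whether the pair agreed. A further probe set, assigned to both Septin5 and Gp1bb, was left out by the rule and read 4.0 to 4.58.

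Gp5 encodes the subunit of that complex that thrombin cleaves. It read 4.16, 4.89, 4.23 and 4.09 in wild type and 4.19, 4.24, 3.84 and 4.14 in FLT3-ITD, below the median on every array. Wild type replicate 2 was the highest by 0.66. The difference was -0.24 ± 0.19 with all arrays (limma adjusted p = 0.808) and -0.06 without that array.

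Pf4 encodes platelet factor 4, a chemokine stored in alpha granules. It read 5.01, 8.09, 5.26 and 4.92 in wild type and 4.70, 5.30, 5.20 and 5.04 in FLT3-ITD. One array, wild type replicate 2, was the only one above its median, and the other 7 overlapped between genotypes. The means were 5.82 ± 1.52 and 5.06 ± 0.26 (SD, n = 4 each), a difference of -0.76 ± 0.65 (SE; 95% interval -2.24 to 0.72; limma adjusted p = 0.822). Without wild type replicate 2 the difference was -0.0048. The SD of Pf4 over the 8 arrays exceeded that of 99.1% of probe sets.

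Ppbp encodes pro-platelet basic protein, the other abundant alpha granule chemokine, which platelets process into CXCL7. It read 3.17, 3.19, 3.08 and 3.12 in wild type and 3.48, 3.05, 3.36 and 3.13 in FLT3-ITD. These were among the dimmest member readings, below the median on every array, and wild type replicate 2 did not stand out. The difference was 0.11 ± 0.12 (95% interval -0.17 to 0.39; limma adjusted p = 0.857).

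**Figure D2:**
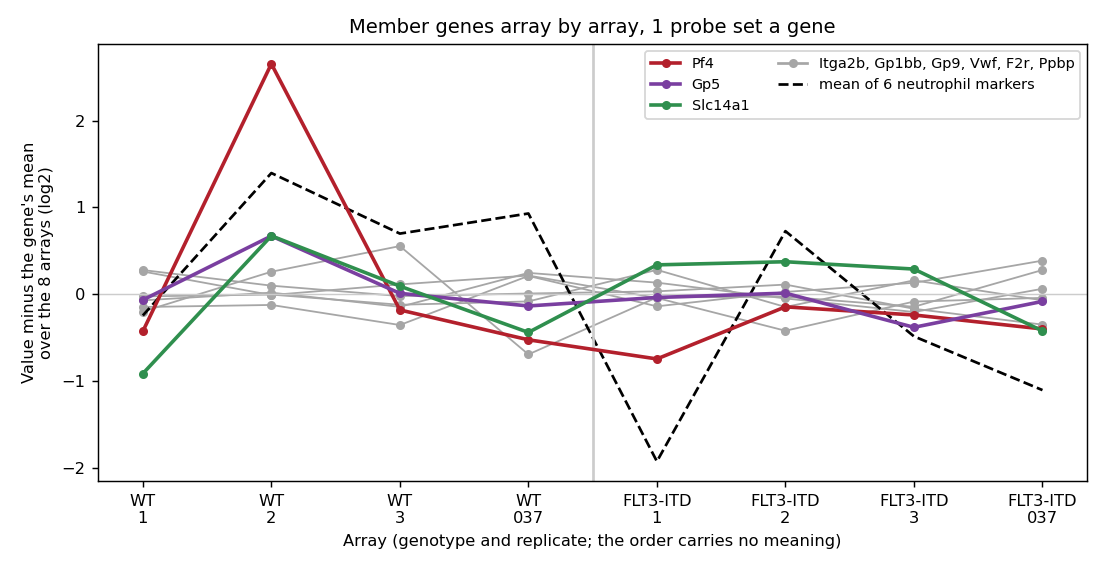
Each member gene on each array as its log2 value minus its mean over the 8 arrays, for its probe set of highest mean, with lines only to help the eye. In wild type replicate 2, Pf4 lies 2.65, Slc14a1 0.67 and Gp5 0.67 above their means, and the dashed mean of 6 neutrophil markers lies 1.40 above its own.

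Wild type replicate 2 was described further because of Pf4, a choice made after the values were seen. Where a gene had several probe sets, the brightest was used. Pf4 exceeded its next highest array by 2.80, the largest such lead of any of the 18193 genes on this array. In all, 4 genes led there by over 2. The same count on the other arrays ran from 0 in FLT3-ITD replicate 3 to 17 in FLT3-ITD replicate 1. Of the other 8 members, Gp5 led by 0.66 and Slc14a1 by 0.30, and the rest were higher on some other array. So 3 of the 9 members were highest there (33.3%, beside 8.49% of all genes), and 2 led by over 0.5 (0.786% of all genes). The array was chosen for Pf4, so these shares are no test of the members. Among 49 other platelet and megakaryocyte genes on the arrays, 2 were highest in wild type replicate 2 (4.08%, beside 8.49% of all genes), and none led by over 0.5 (0.786% of all genes). These 2 were Plek, by 0.17, and the thromboxane receptor gene Tbxa2r, by 0.02. Some further platelet genes, chosen after their values were seen, read 4.82 for Clec1b, 3.89 for Gp6, 2.98 for Tubb1 and 5.82 for Treml1 on that array. Each was below at least 1 other array. Clec1b, Gp6 and Tubb1 lay below the medians on every array and Treml1 exceeded them on 3, which limits what they can show. Selp read 6.72 there, the highest in wild type (6.38, 6.44 and 6.70 in replicates 1, 3 and 037) and below 7.07 in FLT3-ITD replicate 2.

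Markers of mature neutrophils were also high there. Of 6 such genes, 5 were highest in wild type replicate 2, among them S100a8 at 10.78, S100a9 at 12.04 and Ngp at 9.61. Their summed level was 43.8 to 53.7 in wild type and 33.8 to 49.7 in FLT3-ITD, with the top of the range in that array. The next highest sums were those of wild type replicate 037 (50.9), FLT3-ITD replicate 2 (49.7) and wild type replicate 3 (49.5). Pf4 read 4.92, 5.30 and 5.26 on those arrays. Of 9 stem cell markers 3 were highest there, and of 8 erythroid and 10 endothelial markers none was. The gate kept lineage negative cells with cKit on their surface, and how many mature neutrophils remained among them was not measured here. The part of RNA from mature neutrophils in the Pf4 reading was not tested.

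Vwf encodes von Willebrand factor, which is made by endothelial cells and megakaryocytes and in mouse marrow also marks stem cells inclined to the platelet lineage. It read 4.90, 4.93, 4.70 and 5.26 in wild type and 4.91, 5.08, 5.18 and 5.44 in FLT3-ITD, below the median on every array. Replicate 037 was the highest in each genotype. The difference was 0.20 ± 0.16 (95% interval -0.16 to 0.57; limma adjusted p = 0.803). Of 10 endothelial markers, 5 lay above the filter and none passed the test. Their summed levels were 63.1 to 64.6 in wild type and 62.2 to 64.4 in FLT3-ITD. The levels were mixed. Cdh5, at 4.84 to 5.48, and Kdr, Tek and Plvap lay below the medians on every array. Pecam1 at 7.11 to 8.27, Egfl7 at 8.41 to 9.83, Eng at 7.51 to 8.23 and Esam at 6.30 to 6.78 lay above them on all 8 arrays.

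F2r encodes the thrombin receptor PAR1, which signals on human platelets, whereas mouse platelets use PAR3 and PAR4 and F2r is found on other cells. Probe set 1437308_s_at read 7.42, 7.88, 8.18 and 6.93 in wild type and 7.59, 7.60, 7.48 and 7.90 in FLT3-ITD. Probe set 1450852_s_at read 6.10, 7.08, 6.66 and 5.42 in wild type and 7.04, 6.56, 6.02 and 6.77 in FLT3-ITD. On both, the wild type values enclosed the FLT3-ITD values, and wild type replicate 037 was the lowest. The differences were 0.04 ± 0.26 and 0.28 ± 0.36 (SE; limma adjusted p = 0.984 and 0.883). Without both 037 arrays they were -0.27 and -0.07. Over the 8 arrays the probe sets had a Pearson r of 0.79 (exact permutation p = 0.0171, adjusted over 3 pairs 0.0514). Their Spearman rho was 0.69 (exact permutation p = 0.0694, adjusted 0.104). Without the 2 arrays farthest from the median of 1437308_s_at, r was 0.74. Both probe sets are of a type that can match several related transcripts.

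F2rl2, the gene of PAR3, which serves as a cofactor for thrombin on mouse platelets, read 8.21, 8.27, 8.58 and 8.85 in wild type and 6.52, 7.49, 8.24 and 7.60 in FLT3-ITD. The ranges overlapped by a single FLT3-ITD array, replicate 3. Its difference was -1.02 ± 0.33 (limma adjusted p = 0.349 among tested genes). F2rl3, the gene of the signalling receptor PAR4, differed by -0.15 ± 0.18 (limma adjusted p = 0.835).

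Slc14a1 encodes the urea transporter of red cells. Probe set 1428114_at read 4.72, 5.84, 5.82 and 5.01 in wild type and 7.05, 5.99, 6.11 and 5.82 in FLT3-ITD. The FLT3-ITD values were higher apart from an overlap between 5.82 and 5.84. The difference of 0.89 ± 0.34 was the largest of the 12 (95% interval 0.11 to 1.67; limma adjusted p = 0.553). It was 0.62 without FLT3-ITD replicate 1, the array that stood apart.

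The brighter Slc14a1 probe set, 1448640_at, read 6.56, 8.14, 7.56 and 7.03 in wild type and 7.81, 7.84, 7.76 and 7.05 in FLT3-ITD. Here the wild type values enclosed the FLT3-ITD values, with wild type replicates 2 and 1 at the ends. The difference was 0.29 ± 0.34 (limma adjusted p = 0.868), 0.56 without wild type replicate 2 and 0.04 without wild type replicate 1. The probe sets had a Pearson r of 0.73 (exact permutation p = 0.0355, adjusted over 3 pairs 0.0532). Their Spearman rho was 0.79 (exact permutation p = 0.0279, adjusted 0.0838). Without the 2 arrays farthest from the median of 1428114_at, r was 0.63.

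**Figure D3:**
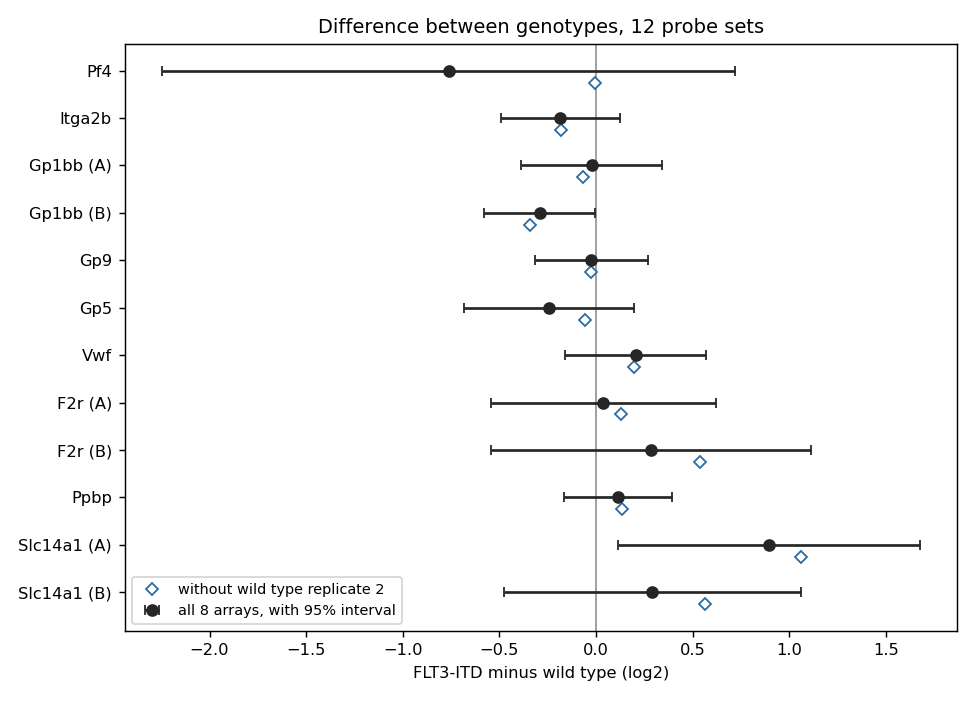
Log2 difference between genotypes, FLT3-ITD minus wild type, for the 12 probe sets, with black points for all 8 arrays, bars for the 95% intervals from limma, and open diamonds for the difference without wild type replicate 2. The intervals of 8 probe sets lie within -1 and 1, and leaving out that array moves Pf4 from -0.76 to -0.0048.

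A second limma test used 1 probe set a gene and kept the 10762 genes whose probe set exceeded the median of at least 4 arrays. Of the 9 members, Itga2b, Gp9, F2r and Slc14a1 were kept, each above the median on all 8 arrays, and none passed (limma adjusted p from 0.749 to 0.979). Among all tested genes 0.604% passed, 46 higher and 19 lower. Pf4, Ppbp, Gp1bb, Gp5 and Vwf did not reach that filter. For each of the 4 kept members, the 2 tested genes most like it over the 8 arrays were found by Pearson correlation, which is a description across arrays that share genotype and amplification. They were Rrp36 (r = 0.96) and Ccr9 (0.95) for Itga2b, Dnajb2 (0.96) and Asic4 (0.94) for Gp9, Rab6a (0.94) and Kif21b (0.91) for F2r, and Mink1 (0.95) and Notch2 (0.95) for Slc14a1. None of these 8 passed the test between genotypes, with limma adjusted p from 0.509 to 0.965.

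Other genes of the lineage were read in 4 lists. Of 55 listed genes, 49 were on the arrays with a name and 34 were tested. Of these, 11 had positive and 23 negative differences (67.6% negative, beside 46.3% of all tested genes). A single gene passed, Gng11, which encodes a G protein gamma subunit abundant in platelets. At an unadjusted limma p under 0.05 there were 9 of the 34 (26.5%), beside 9.58% of all tested genes. The lists were chosen with earlier results of these data known, so these shares are no test of the lineage. The median difference was -0.11, beside 0.02 over all tested genes.

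Gng11 read 7.0, 6.65, 6.84 and 6.86 in wild type and 5.76, 5.86, 6.20 and 5.84 in FLT3-ITD. The groups were apart, with the FLT3-ITD arrays near or below the array medians, so the gene entered the test mainly through wild type. Its log2 level fell by 0.92 (SE 0.14), with a limma adjusted p of 0.0286. Without the filter on dim probe sets, over all 34945 of them, its adjusted p was 0.0514. The call was lost on leaving out any array except FLT3-ITD replicate 3, on leaving out both 037 arrays, with the replicate number as a block, and with the 037 arrays averaged with replicate 1.

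Among surface receptors 5 of 12 were tested, none passed, and the median difference was -0.01. The collagen receptor gene Gp6 at 3.68 to 4.21 and Clec1b, which encodes the podoplanin receptor CLEC-2, at 4.72 to 4.96 lay below the medians on every array. Among granule and secreted proteins 9 of 12 were tested and none passed, with a median of -0.04. F13a1, which encodes the A subunit of coagulation factor XIII and is also made by monocytes and macrophages, read 7.20, 7.15, 7.45 and 8.30 in wild type and 9.31, 9.75, 8.67 and 8.77 in FLT3-ITD. These groups did not overlap, and the difference of 1.60 ± 0.32 missed the threshold (limma adjusted p = 0.0864). Sparc, which encodes a matrix protein carried in alpha granules, read 1.03 ± 0.23 higher (limma adjusted p = 0.137).

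Thrombospondin-1, an abundant alpha granule protein encoded by Thbs1, was high on the 037 arrays of both genotypes. It was singled out after its values were seen. Its brighter probe set read 7.53 and 7.06 in the 037 arrays of wild type and FLT3-ITD and 5.17 to 5.75 in the other 6. The other probe set read 7.15 and 5.87 in the 037 arrays and 4.10 to 6.14 in the rest.

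In the list of signalling, enzyme and cytoskeleton genes 9 of 13 were tested, with a median of -0.23 and Gng11 as its called gene. Tubb1, the beta tubulin of the platelet marginal band, read 2.98 to 3.44. Among megakaryocyte transcription factors 11 of 12 were tested and none passed, with a median of -0.27. The smallest p-values were those of Lmo2, a bridging subunit of the GATA and TAL1 complex, at -0.40 ± 0.12 (limma adjusted p = 0.319), and Gata2, a GATA factor of stem and progenitor cells, at -0.48 ± 0.17 (0.417). Gata1, the GATA factor of megakaryocyte and red cell maturation, read 4.26 to 4.85 and was not tested.

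**Figure D4:**
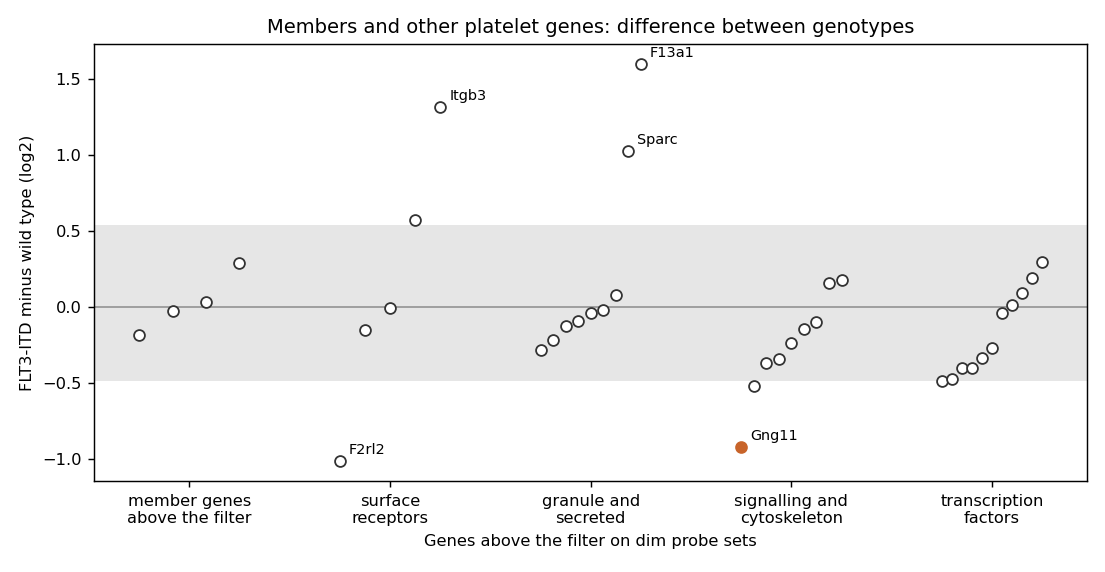
Log2 difference between genotypes, FLT3-ITD minus wild type, for the 4 member genes above the filter and the 34 tested genes of the 4 other lists, each point a gene. The grey band spans the 5th to 95th percentile of all 10762 tested genes, from -0.48 to 0.54, the filled point is Gng11, the 1 gene past the test, and genes beyond 0.7 in size are named.

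Markers of other cell types were set beside these lists. Of 8 erythroid markers 4 were tested and 2 fell, with log2 differences of -2.76 (SE 0.31) for Hbb-b2 and -2.10 (SE 0.34) for Slc4a1 (limma adjusted p = 0.00576 and 0.0336). Slc4a1 exceeded the median on the 4 wild type arrays alone and so entered the test through wild type, and over all 34945 probe sets its adjusted p was 0.0665, against 0.0150 for Hbb-b2. The summed log2 level of the 8 was 51.5 to 54.9 in wild type and 45.0 to 48.7 in FLT3-ITD, and Hbb-b2 and Slc4a1 weigh most in it. The rest differed by -0.78 (Alas2) to -0.03 (Klf1), with Epor at -0.05. Slc14a1, which red cells also carry, read no lower in FLT3-ITD by either probe set. No gene passed among 4 tested stem cell markers (median -0.43), 3 of mast cells and basophils (0.02), 5 of neutrophils (-1.83), 5 of endothelial cells (-0.0032), 1 of B cells (0.06) and 2 of T cells (0.30). The genes of smallest p differed by -1.19 (Hlf) and -0.52 (Mecom) among stem cell markers and -0.87 (Emcn) and -0.26 (Eng) among endothelial ones. Those of neutrophils differed by -2.39 (Ngp) and -0.77 (Ltf), and those of mast cells and basophils by 0.59 (Mcpt8) and -0.28 (Cma1). Cpa3, a mast cell protease gene, lay below the median on every array and so outside the test with the filter. It read 5.26 to 5.88 in wild type and 4.18 to 4.55 in FLT3-ITD. Over all probe sets it passed the test with a log2 difference of -1.10 ± 0.16 (limma adjusted p = 0.0489). In the same list Ms4a2 differed by -0.48, Fcer1a by 0.06 and Tpsb2 by 0.02. Of the 2 tested gate markers, Cd48 rose by 1.06 (SE 0.13; limma adjusted p = 0.00740).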

How the data were processed

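Trizol RNA of sorted marrow progenitors was amplified by a NuGEN Ovation protocol and hybridised to Affymetrix mouse arrays, per the labels' protocols. The authors deposited log2 expression values per probe set, made by RMA per the submitters' processing notes, with no version given. Probe sets were named from the platform annotation, with symbols updated through RefSeq. Of 45101 probe sets, 34945 had 1 gene, 932 had several and 9160 had none.

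The deposited log2 values were tested in R 4.3.3 with limma 3.58.1 and a Benjamini-Hochberg adjusted p of 0.05, without covariates. All 34945 probe sets were tested without a filter. In a second test each gene was represented by its probe set of highest mean, kept where it exceeded the median of at least 4 of 8 arrays. RNA quality controls were compared by an exact permutation test over arrays, whose smallest two-sided p for 4 against 4 is 0.0286. The scripts were tested on simulated data. The number of arrays limits precision, and the 95% intervals reached a median of 0.397 log2 units to each side over all probe sets. Promoter windows came from RefSeq, build GRCm38.p6, and plots were drawn with matplotlib 3.10.9.

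The 9 member genes, the 4 lists of other platelet genes and the 8 lists of other cells and gate markers were chosen with earlier results of these data known. The text names every member probe set, up to 4 called genes or else the 2 of smallest p in each platelet list, up to 2 in each other list, the gate genes and the 2 tested genes most correlated with each kept member. Genes outside that rule, such as Thbs1, Cpa3, S100a8, S100a9, Cdh5 and the dim platelet and lymphocyte genes, were chosen after their values were seen. Some listed genes were not analysed here. Alternatives were a replicate block, averaging the 037 array with replicate 1, other scalings, another variance model, array weights, other filters, a mean over probe sets, and leaving out each array or both 037 arrays.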

Additional observations from a re-analysis of the deposited data

Results flagged for a closer look

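Within each genotype's 4 arrays, 7 of 78 groups of values held an array farther from the rest than Dixon's test allows. That was at its 95% level, where chance gives about 1 in 20. The groups included Thbs1, singled out after its values were seen, and genes named for their small p-values. So 1 in 20 is not a fair rate for this count. Pf4 read 8.09 in wild type replicate 2, with 5.26 the next highest in wild type. Gp1bb by 1456427_at read 5.41 in FLT3-ITD replicate 2, below 5.74 to 5.79 in the other three. Slc14a1 by 1448640_at read 7.05 in FLT3-ITD replicate 037, below 7.76 to 7.84. Outside the members, Sparc read 7.15 in wild type replicate 037 against 6.39 to 6.51, and Thbs1 by 1450377_at read 7.53 on the same array against 5.17 to 5.33. The gate gene Kit read 8.77 in FLT3-ITD replicate 2 against 9.23 to 9.29. Slamf1, the CD150 gene, read 5.75 in wild type replicate 1 against 4.24 to 4.48, all below the array medians.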

How the results depend on the processing

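No member passed the test under any of the 19 alternatives run, in either fit. The 257 recomputed member differences count Itga2b, Gp9, F2r and Slc14a1 in both fits, mostly by the same probe set and with the same value. They are thus not independent. Of the 257, 47 were identical to those reported, as under the replicate block and the other variance model. Those change the error and not the difference. Of the other 210, 186 kept their direction and 24 turned, the latter in F2r, Gp9 and the dim Gp1bb probe set, and the smallest adjusted p was 0.540. The cause of these turns was not tested. With 037 averaged with replicate 1, the F2r differences by 1437308_s_at and 1450852_s_at were -0.14 and -0.0049. With array weights, 1437308_s_at gave -0.050 among all probe sets and -0.10 among tested genes. Without both 037 arrays, an alternative chosen after seeing the data, the F2r differences were -0.27 and -0.075, Gp1bb by 1422977_at was 0.054 and Gp9 was 0.026. Leaving out 1 array at a time gave -0.19 to 0.23 and -0.016 to 0.54 for the F2r probe sets, -0.10 to 0.11 for Gp1bb by 1422977_at and -0.079 to 0.052 for Gp9. The count of other platelet genes past the test, 1 with all arrays, was 2 with array weights (Gng11 and Sparc), 0 without both 037 arrays and 0 to 1 on leaving out 1 array. That 1 was F13a1 without wild type replicate 037 and Gng11 without FLT3-ITD replicate 3. With 037 averaged the single gene was Sparc. The actin gap between genotypes was 0.13, and -0.018 to 0.20 on leaving out 1 array, below 0 without FLT3-ITD replicate 037.

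Same-numbered arrays had correlations of 0.03 to 0.11 between their deviations from the genotype means. Replicates 1, 3 and 037 correlated best with their own number in both directions, and replicate 2 with replicate 3 of the other genotype. The main tests did not pair the samples by number, and whether they are paired was not settled. With the replicate block, 0 members and 0 other platelet genes passed. Probe sets below the array medians, among them those of Ppbp, Gp5 and Vwf, have little signal over background, which limits what they can show.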
